A study of Homo sapiens with 4 samples.

Results

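The genes described here were chosen by symbol to represent the core proteins of the spliceosome. They are the protein-coding genes of GENCODE 29 whose symbols begin with SNRP and a letter, SNRNP, SF3A or SF3B, PRPF, LSM and a digit, or U2AF, and there were 58 of them among 19657 protein-coding genes and 60279 gene identifiers in the human counts. By symbol they fall into 8 Sm genes, 13 LSm genes, 9 SF3 genes, 13 PRPF genes, 11 other genes of small nuclear ribonucleoprotein (snRNP) proteins and 4 U2AF genes. Not all are spliceosome proteins, since LSM1, LSM10, LSM11 and LSM14A serve mRNA decay, histone mRNA processing or mRNA storage. The RNA came from K562, an established chronic myeloid leukaemia line, with no drug treatment in any library. Cells took up the uridine analogue 4-thiouridine at 1 mM for 15 min (2 libraries) or for 5 min (2 libraries). RNA made in that window was then pulled out through its thiol groups and sequenced (TT-seq). Before the pull-down, 15 µg of RNA from Drosophila S2 cells had been added to each 150 µg of human RNA. Each label time has only 2 libraries. No source used here says that these were separate cultures, so the p-values reflect the scatter of 4 libraries and that scatter may be technical.

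The spliceosome removes introns from pre-mRNA, and it assembles anew on every intron from the U1, U2, U4, U5 and U6 snRNPs. Sm proteins form a ring around the small nuclear RNA of U1, U2, U4 and U5, and the related LSm proteins ring U6, while another LSm ring with LSM1 in it takes part in decay of mRNA in the cytoplasm. U2AF recognises the 3′ splice site, the SF3A and SF3B complexes hold U2 snRNP on the branch point, and the PRPF proteins, named after pre-mRNA processing mutants of yeast, work mostly in U5, in U4/U6 and in the later steps.

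The 15 min libraries held 5051370 and 4726327 human reads and 318710 and 308978 fly reads, against 4339981 and 4695405 human reads and 897018 and 803914 fly reads in the 5 min libraries. Mitochondrially encoded genes took 6.94% and 5.93% of the human reads after 15 min, against 2.07% and 2.59% after 5 min. All 10 erythroid genes used as K562 markers had reads, with a summed level of 2136 and 2176 counts per 1000000 reads (CPM) after 15 min, against 2750 to 2897 CPM after 5 min. The marker lists of T cells, B cells, monocytes, fibroblasts and epithelial cells each summed to between 0.792 and 59.6 CPM, and MS4A1, CD163 and KRT5 were at 0.

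Every deposited count was read on 2 scales. A fly-scaled read is a human read multiplied by the mean fly total over the fly total of its library, so it follows the amount of labelled RNA per mass of total RNA. CPM is taken over the human library size after edgeR's TMM scaling, so it follows a gene's share of the labelled RNA. Since 15 min of labelling gathers more RNA of nearly every gene than 5 min, the share is the scale on which a gene can fall. Both scales use the same reads, and the 2 comparisons differ by about a constant for every gene.

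Of the 58 genes, 57 passed the filter on low counts. SNRPN, which encodes the brain form of SmB in the imprinted Prader-Willi region at chr15:24823637-24978723, had 0 reads in all 4 libraries, so at most 3 reads per library are allowed by counting. Its exons overlap those of other genes on the same strand, so 0 counted reads do not show that it made no RNA. SNURF, which overlaps it, also had 0 reads in all 4, while the noncoding host gene SNHG14 of the same locus had 403 and 349 reads after 15 min and 341 and 317 reads after 5 min. The other members had between 95 and 11265 reads over the 4 libraries, and no tested member had fewer than 12 reads in a library. Exons of 24 members overlap exons of another gene and 10 members share over 10% of their 50-base words with transcripts of other genes. Neither holds for 29 members. Whether reads were counted over exons or whole genes, and with or without strand, is stated in no source used here, so reads of overlapping genes could not be separated.

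Promoter sequences are shown first. RefSeq's GRCh38.p14 table held promoters for 47 of the 58 genes, each with 250 bases before and 50 after the annotated start. Sequences with undetermined bases were left out, and only the first listed start of each gene was used. Of the matched genes called in the share of labelled RNA, the 3 with the lowest and the 3 with the highest log2 fold change are printed. These are SNRPD2 (chr19:45692267-45692566), PRPF8 (chr17:1684818-1685117) and LSM4 (chr19:18323027-18323326), which fell at 15 min, and PRPF38B (chr1:108692060-108692359), U2AF1 (chr21:43107521-43107820) and U2AF1L4 (chr19:35745369-35745668), which rose. PRPF38B lies on the plus strand and the other 5 on the minus strand. All are written 5′ to 3′ in the direction of the gene. Capitals mark matches on either strand to any of 7 motifs, and matches that overlap are capitalised as one run. The letters searched were CCGGAAG for the ETS family of activators, which bind many promoters of housekeeping genes, and GGGCGG for the SP and KLF family of zinc finger proteins, which bind GC-rich stretches. For the zinc finger protein YY1 they were AAGATGGCG, for NF-Y, which binds upstream of the start, they were CCAAT, and for the E-box proteins, MYC among them, CACGTG was searched. The TATA box, read by the general factor TFIID, was searched as TATAAA. The palindromic motif of NRF1, an activator of respiratory and housekeeping genes, was searched with its central base free.
SNRPD2: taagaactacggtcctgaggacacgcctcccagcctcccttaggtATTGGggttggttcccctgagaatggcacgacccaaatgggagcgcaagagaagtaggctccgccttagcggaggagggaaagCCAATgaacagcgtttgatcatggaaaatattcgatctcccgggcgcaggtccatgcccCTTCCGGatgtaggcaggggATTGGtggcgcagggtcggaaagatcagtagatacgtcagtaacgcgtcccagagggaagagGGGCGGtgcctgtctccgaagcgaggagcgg
PRPF8: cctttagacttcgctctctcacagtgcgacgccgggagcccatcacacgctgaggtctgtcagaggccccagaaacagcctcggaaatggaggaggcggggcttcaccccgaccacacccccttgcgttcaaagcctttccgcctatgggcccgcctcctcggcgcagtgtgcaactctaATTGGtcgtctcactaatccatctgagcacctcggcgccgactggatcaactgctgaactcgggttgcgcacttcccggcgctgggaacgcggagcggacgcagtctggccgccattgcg
LSM4: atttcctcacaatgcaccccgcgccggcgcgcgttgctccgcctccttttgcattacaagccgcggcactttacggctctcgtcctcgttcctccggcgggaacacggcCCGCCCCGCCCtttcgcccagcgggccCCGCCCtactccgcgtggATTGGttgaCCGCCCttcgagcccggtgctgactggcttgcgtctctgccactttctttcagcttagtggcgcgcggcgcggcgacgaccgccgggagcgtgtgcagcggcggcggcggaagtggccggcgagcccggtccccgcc
PRPF38B: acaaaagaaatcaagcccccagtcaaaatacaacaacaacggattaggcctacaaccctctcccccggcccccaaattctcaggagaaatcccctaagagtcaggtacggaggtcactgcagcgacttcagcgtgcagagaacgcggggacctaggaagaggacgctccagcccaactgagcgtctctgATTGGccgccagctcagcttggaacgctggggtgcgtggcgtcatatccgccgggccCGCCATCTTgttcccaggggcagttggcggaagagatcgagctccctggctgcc
U2AF1: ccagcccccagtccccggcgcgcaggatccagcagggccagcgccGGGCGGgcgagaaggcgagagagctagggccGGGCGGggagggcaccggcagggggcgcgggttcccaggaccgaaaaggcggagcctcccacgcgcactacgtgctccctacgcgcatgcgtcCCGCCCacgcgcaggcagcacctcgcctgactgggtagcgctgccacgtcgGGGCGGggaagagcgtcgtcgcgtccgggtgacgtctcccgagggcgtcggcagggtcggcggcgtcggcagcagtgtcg
U2AF1L4: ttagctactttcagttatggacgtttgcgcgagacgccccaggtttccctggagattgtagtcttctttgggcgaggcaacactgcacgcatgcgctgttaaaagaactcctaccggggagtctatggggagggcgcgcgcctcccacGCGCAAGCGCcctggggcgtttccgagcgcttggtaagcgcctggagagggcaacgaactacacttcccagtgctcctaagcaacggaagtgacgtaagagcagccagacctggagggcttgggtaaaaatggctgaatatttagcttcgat
The SNRPD2 promoter held 3 CCAAT matches, 1 ETS match and 1 SP and KLF match. The LSM4 and U2AF1 promoters each held 4 SP and KLF matches. LSM4 also held 1 CCAAT match, and PRPF8 held 1 CCAAT match alone. PRPF38B held 1 YY1 and 1 CCAAT match, and U2AF1L4 held 1 NRF1 match. The ETS letters stood in 42.6% of the 47 promoters, against 20.6% of 9194 promoters of tested protein-coding genes and 10.7% of all 27303 promoters, 1 per gene. The NRF1 letters stood in 21.3% of the members' promoters, against 12.4% of promoters of tested protein-coding genes and 6.29% of all. CCAAT stood in 42.6%, against 37.1% and 35.7% of these same sets. GGGCGG stood in 63.8%, against 70.6% and 44.6%. The YY1 letters stood in 8.51%, against 4.27% and 1.85%, and the E-box letters in 4.26%, against 10.5% and 7.44%. TATAAA stood in 1 of the 47 promoters (2.13%), against 5.43% of promoters of tested protein-coding genes and 3264 of all 27303. These matches describe the letters in a window, and binding was not measured.

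Labelled RNA of all 57 tested genes rose between the label times on the fly-scaled measure (edgeR's quasi-likelihood test, Benjamini-Hochberg adjusted p under 0.05 over 17322 genes). This is the background of the comparison, since 98.4% of all tested genes and 98.5% of protein-coding ones were called higher and 0.0115% of all were called lower. In all 57 both 15 min libraries lay above both 5 min libraries, as they did for 99% of all genes. The size of the rise set the spliceosome genes apart from one another. The median fold was 2.72 (1.39 to 5.53), against 3.20 over all tested genes and 2.96 over protein-coding ones. The ratio of the label times is 3, and 17 of the 57 genes (29.8%) rose by more than 3-fold, against 58.1% of all genes and 47.8% of protein-coding ones. By group the median fold was 2.25 for Sm, 2.78 for LSm, 2.08 for SF3, 2.89 for PRPF, 2.72 for the other snRNP genes and 5.22 for U2AF. The U2AF medians rest on 4 genes, of which U2AF1 and U2AF1L5 share 94.3% of their words and may not be independent. The rise rests on the fly totals, and an error in these would move every gene together.

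The members' summed reads were 0.657% and 0.667% of the human reads after 15 min, against 0.776% and 0.772% after 5 min. The label times did not overlap, with means of 0.662% ± 0.00731 at 15 min and 0.774% ± 0.00290 at 5 min (2 libraries each, ± SD). The exact permutation test, two-sided, gave p = 0.333, the smallest that 6 arrangements of 4 libraries allow, so this sum could not pass a threshold of 0.05. In the fit of the share across all genes, 29 of the 57 members (50.9%) fell at 15 min, against a background of 21.3% of all tested genes and 30.5% of protein-coding ones. In the other direction 5 members (8.77%) rose, against 16.8% of all genes and 13.7% of protein-coding ones, and 23 did not pass. The 5 include both U2AF1 and its near copy U2AF1L5, whose reads could not be told apart with certainty. Calls in either direction thus came to 34 of 57, against 38.1% of all genes and 44.2% of protein-coding ones. The members were also better read, and a gene with more reads is called more easily. Their median was 1708 reads over the 4 libraries, against 370 over all tested genes and 751 over protein-coding ones. The part of read depth in these shares of calls was not tested. The median log2 fold change of share was -0.21, against 0.03 over all genes and -0.08 over protein-coding ones. Both 15 min libraries lay below both 5 min libraries for 38 of the 57 (66.7%), against 33% of all genes and 44.2% of protein-coding ones. They lay above them for 10 (17.5%), against 34.6% of all genes and 27.3% of protein-coding ones. Leaving out 1 library gave 27 to 29 lower calls, whereas the count of higher calls was 3 without replicate 1 of 15 min and 3 without replicate 1 of 5 min, against 5 with all libraries. Scaling by total counts in place of TMM gave 9 higher and 26 lower calls, and DESeq2 gave 2 higher and 26 lower calls. Over all 17322 genes DESeq2 called 923 higher and 2370 lower, against 2915 and 3692 in the main fit. With mitochondrial genes left out there were 5 higher and 30 lower calls. The erythroid marker sum, taken without TMM scaling, moved in the same direction as most members, and its part in these calls was not tested. A lower share was not a lower amount here, since labelled RNA of all 57 tested members was higher at 15 min on the fly scale. In bulk RNA, the number of cells that make a transcript and the amount per cell cannot be told apart.

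**Figure D1:**
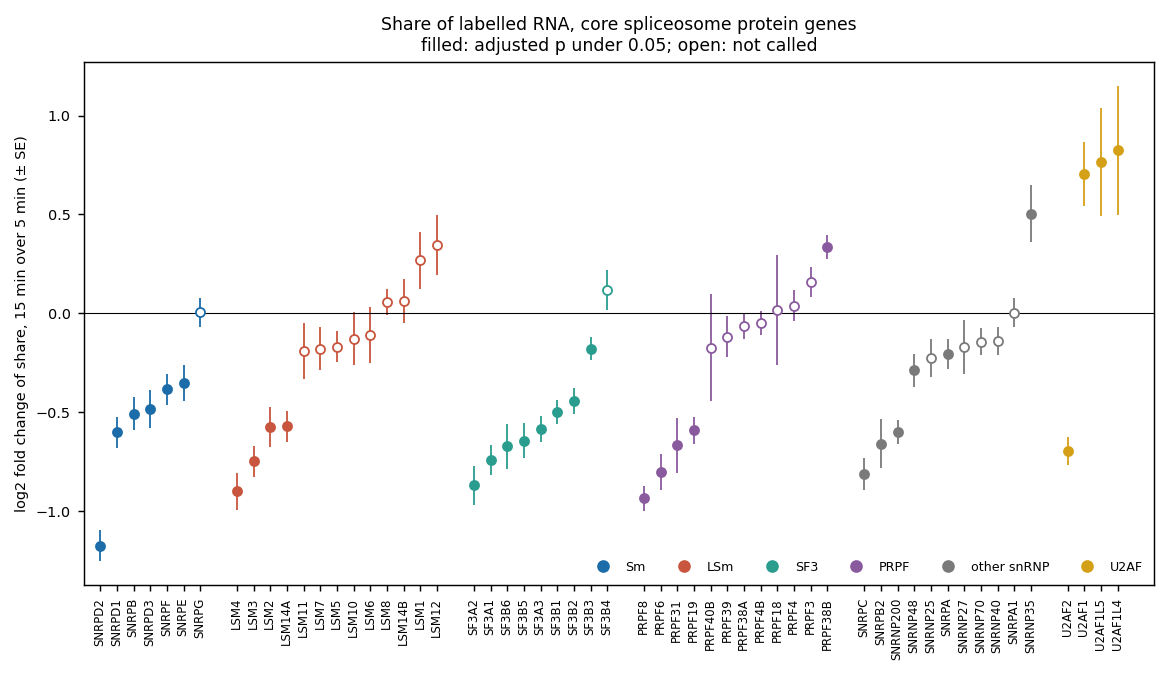
Log2 fold change of share (15 min over 5 min, ± SE) for the tested genes but 1, ordered within the Sm, LSm, SF3, PRPF, other snRNP and U2AF groups, with filled points for calls at an adjusted p under 0.05 and open points for the rest. Values run from -1.17 for SNRPD2 to 0.83 for U2AF1L4, 8 of 9 SF3 genes and 6 of 7 Sm genes are filled below 0, and 3 of 4 U2AF genes are filled above 0. Among these 3, U2AF1 and U2AF1L5 share 94.3% of their words.

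Among the Sm genes the share of 6 of the 7 measured (85.7%) fell at 15 min and none rose, with a median log2 fold change of -0.48. Over protein-coding genes 30.5% fell and 13.7% rose. SNRPD2 (chr19:45687454-45692569), which encodes SmD2, had the lowest value of all members. Its share was 64.8 and 69.8 CPM after 15 min, against 152 and 152 CPM after 5 min. On the fly scale it had 614 and 641 reads after 15 min, against 412 and 490 reads after 5 min. The label times did not overlap on either scale, with the share lower and the fly-scaled amount higher at 15 min. The log2 fold change of share was -1.17 ± 0.08 (SE, adjusted p = 2.55e-46), and the fly-scaled fold was 1.39 (adjusted p = 0.00469), the smallest rise of any member. The fly-scaled call was lost without replicate 1 of 15 min (adjusted p = 0.121) and without replicate 2 of 15 min (adjusted p = 0.172), within a range of 4.05e-09 to 0.172 over 9 alternatives. Exons of SNRPD2 overlap those of QPCTL on the opposite strand.

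SNRPG (chr2:70281362-70293771), which encodes SmG of the same ring, had the most reads of the Sm genes and their highest log2 fold change of share. It stood at 144 and 138 CPM after 15 min, against 144 and 137 CPM after 5 min, so the label times overlapped. Its fly-scaled reads were 1368 and 1262 after 15 min, against 390 and 445 after 5 min. The share differed by a log2 fold change of 0.01 ± 0.07 (SE, adjusted p = 0.959), the sign of which changed with the scaling, and the fly-scaled fold was 3.15. SNRPB (chr20:2461634-2470853), which encodes SmB and SmB′ and is a near relative of SNRPN, stood at 71.9 and 81.1 CPM after 15 min, against 104 and 113 CPM after 5 min. Both 15 min libraries of SNRPB lay below both 5 min libraries, with a log2 fold change of -0.51 ± 0.08 (SE, adjusted p = 1.28e-08). SNRPB shares 15.7% of its 50-base words with other genes. The remaining 4, SNRPD1, SNRPD3, SNRPE and SNRPF, lay between -0.60 and -0.35 and fell. SNRPE, at -0.35, was no longer called in DESeq2 (adjusted p = 0.0515, range 0.000231 to 0.0515 over 11 alternatives). Within one ring, then, SNRPD2 had 44.9 and 50.7 reads per 100 SNRPG reads after 15 min, against 106 and 110 after 5 min. These ratios did not overlap and their means had a quotient of 0.443.

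**Figure D2:**
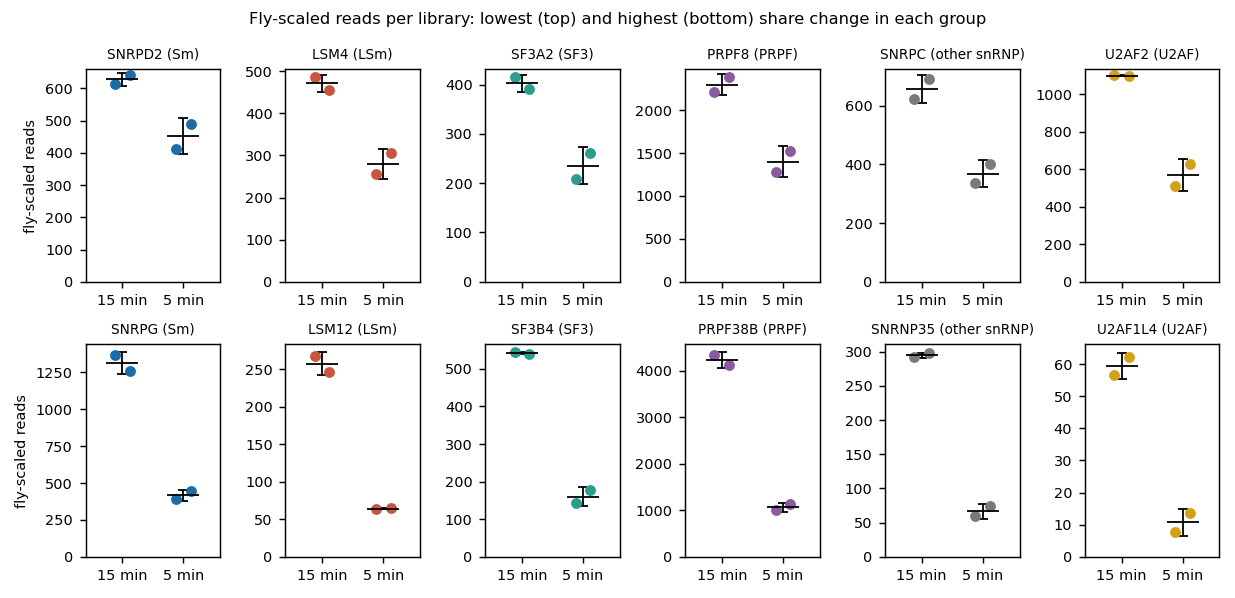
Fly-scaled reads in each library (points) with their mean (horizontal line) and SD (bars, n = 2), 15 min left of 5 min, for the member with the lowest (top) and the highest (bottom) change of share in each group. In every panel the 15 min points lie above the 5 min points, and the gap is 1.39-fold for SNRPD2 and 5.53-fold for U2AF1L4.

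Of the 13 LSm genes, 4 (30.8%) fell in share, close to the 30.5% of protein-coding genes, and none rose. Their median log2 fold change was -0.17. The subunits common to the nuclear and cytoplasmic rings, LSM2 to LSM7, all had both 15 min libraries below both 5 min libraries, and 3 of the 6 fell. Over protein-coding genes 44.2% had both 15 min libraries below both 5 min libraries. LSM4 (chr19:18306230-18323274), one of these, was lowest. Its share was 51.3 and 49.7 CPM after 15 min, against 93.8 and 94.5 CPM after 5 min. Its fly-scaled reads were 486 and 456 after 15 min, against 255 and 306 after 5 min. The share was thus lower and the amount higher at 15 min with no overlap on either scale, at a log2 fold change of share of -0.90 ± 0.09 (SE, adjusted p = 1.7e-20) and a fly-scaled fold of 1.68. LSM3, at -0.75, and LSM2, at -0.58, also fell. LSM5, LSM7 and LSM6 lay between -0.18 and -0.11 and did not pass. LSM5, at -0.17, passed without replicate 1 of 5 min (adjusted p = 0.0206, range 0.0206 to 0.532 over 11 alternatives).

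The subunits that tell the 2 rings apart were not called lower, and neither were LSM5, LSM6 and LSM7 of the shared subunits. LSM8 (chr7:118184032-118192824), of the U6 ring, had the most reads of the LSm genes, with 224 and 219 CPM after 15 min and 222 and 205 CPM after 5 min. LSM1 (chr8:38163321-38176730), of the mRNA decay ring, stood at 28.5 and 30.0 CPM after 15 min and 26.3 and 22.4 CPM after 5 min. The label times overlapped for LSM8 and did not for LSM1. Neither passed the test, at log2 fold changes of 0.06 ± 0.07 (SE, adjusted p = 0.528) and 0.27 ± 0.14 (SE, adjusted p = 0.132). With scaling by total counts both passed (adjusted p = 0.0394 for LSM8 and 0.0293 for LSM1, the lowest of each gene's 11 alternatives, which reached 0.946 for LSM8 and 0.604 for LSM1). LSM1 had 12.7 and 13.7 reads per 100 LSM8 reads after 15 min, against 11.9 and 10.9 after 5 min, a quotient of means of 1.16. Exons of LSM1 overlap BAG4 and an antisense gene.

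The LSm proteins that sit in neither ring also spread around 0. LSM12 (chr17:44034635-44067619) had the highest value of the 13, with 28.3 and 26.9 CPM after 15 min, against 23.4 and 20.2 CPM after 5 min. Both 15 min libraries lay above both 5 min libraries, but the log2 fold change of 0.35 ± 0.15 (SE, adjusted p = 0.0537) did not pass. LSM12 passed with total counts (adjusted p = 0.00963) and with at least 10 reads asked of every library (adjusted p = 0.0417), in a range of 0.00963 to 0.386 over 11 alternatives. LSM14A, which takes part in the storage of untranslated mRNA in P-bodies, fell by 0.57 on the log2 scale, while its relative LSM14B was at 0.06 (adjusted p = 0.703). LSM10 and LSM11, which replace Sm subunits in the U7 snRNP that processes histone mRNA, were at -0.13 and -0.19 and did not pass.

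Of the SF3 genes, 8 of 9 (88.9%) fell in share and none rose, against 30.5% and 13.7% of protein-coding genes. The median log2 fold change was -0.58. All 3 SF3A genes fell, with a median of -0.74, and 5 of the 6 SF3B genes fell, with a median of -0.47. SF3A2 (chr19:2236504-2248679), which encodes a subunit of the complex that joins U2 together with SF3B, was lowest. Its share was 43.8 and 42.5 CPM after 15 min, against 76.6 and 80.8 CPM after 5 min. On the fly scale it had 415 and 390 reads after 15 min, against 208 and 261 after 5 min. The log2 fold change of share was -0.87 ± 0.10 (SE, adjusted p = 1.16e-16) with no overlap, and the fly-scaled fold was 1.72. Its exons overlap those of PLEKHJ1 on the opposite strand.

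SF3B3 (chr16:70523788-70577670), a large scaffold subunit of SF3B, had the most reads of all members. It stood at 567 and 568 CPM after 15 min, against 649 and 636 CPM after 5 min, so the label times did not overlap. The log2 fold change was -0.18 ± 0.06 (SE, adjusted p = 0.0108). The call was lost with total counts (adjusted p = 0.328) and without replicate 1 of 15 min (adjusted p = 0.0882), in a range of 0.00314 to 0.328 over 11 alternatives. SF3B4 (chr1:149923317-149928344), which contacts the pre-mRNA upstream of the branch point, was the only SF3 gene that did not fall, with 57.4 and 58.9 CPM after 15 min and 52.3 and 54.9 CPM after 5 min. Both 15 min libraries of SF3B4 lay above both 5 min libraries, at a log2 fold change of 0.12 ± 0.10 (SE, adjusted p = 0.381). SF3B1, the subunit that cradles the branch point and is often mutated in myeloid neoplasms, fell by 0.50 on the log2 scale. The other 5, SF3A1, SF3A3, SF3B2, SF3B5 and SF3B6, fell by 0.44 to 0.74. SF3A2 had 76.2 and 72.1 reads per 100 SF3B4 reads after 15 min, against 147 and 147 after 5 min, a quotient of 0.505.

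The 13 PRPF genes were divided into 5 that fell (38.5%), 1 that rose (7.69%) and 7 that did not pass, around a median log2 fold change of -0.12. Over protein-coding genes the shares were 30.5% lower and 13.7% higher, not far from these. PRPF8 (chr17:1650629-1684882), the U5 protein at the catalytic centre of the spliceosome, was lowest. It stood at 234 and 260 CPM after 15 min, against 470 and 472 CPM after 5 min. Its fly-scaled reads were 2214 and 2382 after 15 min, against 1277 and 1526 after 5 min. Neither scale showed overlap, at a log2 fold change of share of -0.93 ± 0.06 (SE, adjusted p = 3.24e-49) and a fly-scaled fold of 1.64. The fly-scaled rise of PRPF8 did not pass without replicate 2 of 15 min (adjusted p = 0.0518, range 8e-26 to 0.0518 over 9 alternatives).

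PRPF38B (chr1:108692323-108701803), a relative of the activation factor PRPF38A, was the PRPF gene that rose. It stood at 459 and 448 CPM after 15 min, against 367 and 350 CPM after 5 min. Its fly-scaled reads were 4345 and 4111 after 15 min, against 999 and 1132 after 5 min. The label times did not overlap, with a log2 fold change of share of 0.34 ± 0.06 (SE, adjusted p = 2.7e-07) and a fly-scaled fold of 3.97, and no exon of another gene overlaps it. PRPF38B had 196 and 173 reads per 100 PRPF8 reads after 15 min, against 78.2 and 74.2 after 5 min, so PRPF38B was the more read of the pair in the 15 min libraries and PRPF8 in the 5 min libraries.

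Among the other PRPF genes, PRPF6, which bridges U5 and U4/U6, fell by 0.80 on the log2 scale, PRPF31 of U4/U6 by 0.67 and PRPF19, the ubiquitin ligase of the complex named after it, by 0.59. PRPF3 and PRPF4, which bind each other on U4/U6, were at 0.16 and 0.04 and did not pass. PRPF3 passed without replicate 2 of 15 min (adjusted p = 0.0483) and with total counts (adjusted p = 0.00229), in a range of 0.00229 to 0.730 over 11 alternatives. PRPF38A and the kinase gene PRPF4B were at -0.06 and -0.05, with a sign that turned when total counts set the scale. PRPF39, PRPF40B and PRPF18 were at -0.12, -0.17 and 0.02, and the last of these shares 37.1% of its words with another gene.

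Of the 11 other snRNP genes, 5 fell (45.5%), 1 rose (9.09%) and 5 did not pass, with a median log2 fold change of -0.21. Over protein-coding genes 30.5% fell and 13.7% rose. SNRPC (chr6:34757406-34773794), the U1 protein that helps U1 hold the 5′ splice site, was lowest. It stood at 65.9 and 75.3 CPM after 15 min, against 124 and 124 CPM after 5 min. Its fly-scaled reads were 625 and 691 after 15 min, against 336 and 401 after 5 min. No overlap was seen on either scale, with a log2 fold change of share of -0.81 ± 0.08 (SE, adjusted p = 2.81e-21) and a fly-scaled fold of 1.79. SNRNP200 (chr2:96274336-96305515), the helicase that unwinds U4 from U6, had the most reads of this group, with 341 and 323 CPM after 15 min, against 467 and 539 CPM after 5 min. It fell without overlap by 0.60 on the log2 scale. With PRPF8 and PRPF6 it makes 3 that fell of the 4 U5 genes matched by symbol, and the other, SNRNP40, was at -0.14 (adjusted p = 0.117). Other U5 genes lie outside the symbol rule. In a separate list of 12 splicing ATPases and U5 genes, 5 fell, 1 rose and 6 did not pass. Over tested protein-coding genes 30.5% fell.

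SNRPA and SNRPB2 encode related RNA-binding proteins of U1 and U2. SNRPA (chr19:40750637-40765389) stood at 111 and 105 CPM after 15 min, against 128 and 122 CPM after 5 min. SNRPB2 (chr20:16729961-16742563) stood at 30.5 and 29.4 CPM after 15 min, against 47.5 and 47.0 CPM after 5 min. Both fell without overlap, SNRPA by 0.21 and SNRPB2 by 0.66 on the log2 scale. The call of SNRPA (adjusted p = 0.0214) was lost without replicate 2 of 15 min (0.122), without replicate 1 of 5 min (0.0832), with total counts (0.288) and in DESeq2 (0.177), within a range of adjusted p from 0.00767 to 0.288 over 11 alternatives. SNRPB2 had 27.4 and 28.0 reads per 100 SNRPA reads after 15 min, against 37.3 and 38.6 after 5 min, a quotient of 0.730.

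The minor spliceosome, which removes a rare class of introns, was represented by SNRNP25, SNRNP35 and SNRNP48 of the U11/U12 snRNP, of which 1 rose, 1 fell and 1 did not pass. SNRNP35 (chr12:123457641-123473154) stood at 30.8 and 32.4 CPM after 15 min, against 21.7 and 22.8 CPM after 5 min. Its fly-scaled reads were 292 and 298 after 15 min, against 59.1 and 73.9 after 5 min. It rose without overlap, at a log2 fold change of share of 0.50 ± 0.14 (SE, adjusted p = 0.00218) and a fly-scaled fold of 4.45. DESeq2 did not call it (adjusted p = 0.0880, range 0.000181 to 0.0880 over 11 alternatives), and its exons overlap RILPL1 on the opposite strand. SNRNP48 fell by 0.29 (adjusted p = 0.00226). It was not called without replicate 1 of 15 min (0.110), with total counts (0.0637) and in DESeq2 (0.0845), within a range of adjusted p from 0.000616 to 0.110 over 11 alternatives. SNRNP25 had both 15 min libraries below both 5 min libraries and was at -0.22 (adjusted p = 0.0507). It passed as lower with median-of-ratios factors (adjusted p = 0.0403) and with mitochondrial genes left out (adjusted p = 0.0489), in a range of 0.0336 to 0.325 over 11 alternatives. Of the genes left, SNRNP70 of U1 was at -0.14 (adjusted p = 0.0854), SNRNP27 of the U4/U6.U5 particle at -0.17 (adjusted p = 0.333), and SNRPA1 of U2 at 0.00 with a sign that changed with the scaling.

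The U2AF genes split between the large and the small subunit. U2AF2 (chr19:55654146-55674715), the large subunit that binds the polypyrimidine tract, stood at 116 and 120 CPM after 15 min, against 188 and 194 CPM after 5 min. U2AF1 (chr21:43092956-43107587), the small subunit that reads the AG at the 3′ splice site, stood at 28.1 and 25.7 CPM after 15 min, against 17.9 and 15.2 CPM after 5 min. The label times did not overlap for either gene, and they lay in opposite order. U2AF2 fell by 0.70 on the log2 scale (adjusted p = 3.7e-21) and U2AF1 rose by 0.70 ± 0.16 (SE, adjusted p = 7.41e-05). U2AF1 was called higher under all 11 alternatives, with log2 fold changes of 0.58 to 0.81. On the fly scale U2AF2 had 1101 and 1097 reads after 15 min, against 510 and 629 after 5 min, and U2AF1 had 267 and 235 after 15 min, against 48.7 and 49.2 after 5 min. The folds were 1.93 and 5.12. In reads of the same library, U2AF1 had 24.2 and 21.5 per 100 U2AF2 reads after 15 min, against 9.54 and 7.83 after 5 min, a quotient of 2.63.

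U2AF1L5 (chr21:6484623-6499261) is annotated as a copy of U2AF1 elsewhere on the chromosome, with 94.3% of its words shared. Its annotated span is 14639 bases, against 14632 for U2AF1. Reads could not be assigned to one or the other with certainty, and whether they are separate loci in K562 was not tested. As counted, U2AF1L5 stood at 9.25 and 8.83 CPM after 15 min, against 4.78 and 5.82 CPM after 5 min. It rose by 0.76 on the log2 scale (adjusted p = 0.0158) without overlap, as U2AF1 did. The call was lost without replicate 1 of 15 min (0.0963), replicate 2 of 15 min (0.0560) or replicate 1 of 5 min (0.152) and in DESeq2 (0.190), within a range of adjusted p from 0.00539 to 0.190. With both genes summed the rise was 0.72 (adjusted p = 3.20e-06) and the fly-scaled log2 fold change 2.37. U2AF1L4 (chr19:35742464-35745445), a shorter relative of the small subunit, had the fewest CPM of the 4, with 5.98 and 6.78 after 15 min, against 2.87 and 4.25 after 5 min. It rose by 0.83 ± 0.33 (SE, adjusted p = 0.0322) without overlap, on 31 and 33 reads after 15 min, against 12 and 19 reads after 5 min. The call was lost without replicate 1 of 15 min (0.0681), replicate 2 of 15 min (0.174) or replicate 1 of 5 min (0.299) and with no filter (0.0590), within a range of adjusted p from 0.0142 to 0.299. DESeq2 gave no call for U2AF1L4, so its range covers 10 alternatives. Exons of U2AF1L4 overlap those of PSENEN and of AD000671.2.

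**Figure D3:**
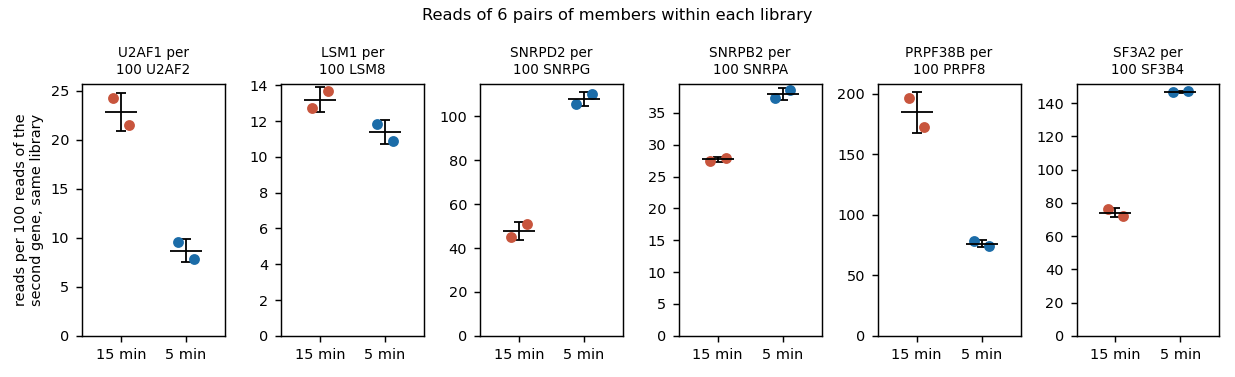
Reads of the gene named first per 100 reads of the gene named below it, in each library (points) with the mean (horizontal line) and SD (bars, n = 2), 15 min left of 5 min, for 6 pairs of members. U2AF1 per U2AF2, LSM1 per LSM8 and PRPF38B per PRPF8 are higher at 15 min, SNRPD2 per SNRPG, SNRPB2 per SNRPA and SF3A2 per SF3B4 are lower, and no pair overlaps between label times.

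The 6 within-library ratios do not depend on either scaling. The pairs SNRPD2 with SNRPG, PRPF38B with PRPF8 and SF3A2 with SF3B4 were chosen for their difference after the values were seen. Each of the 6 gave p = 0.333 in a two-sided exact permutation test, the smallest possible with 6 arrangements, so none could pass and an adjusted value adds nothing to this.

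Production rates for untreated cells, 1 deposited value per gene with no unit given, covered 52 of the 58 members and 11777 genes in all. The members' median rate was 0.0416, against 0.0114 over all rated genes, and their median percentile was 86.9. Group medians of the percentile were 96.2 for Sm, 92.0 for SF3, 89.7 for the other snRNP genes, 88.3 for PRPF and 82.3 for LSm, and 49.0 for the 2 rated U2AF genes. The highest rate was that of SF3B5 (chr6:144094881-144095573), a small SF3B subunit encoded by a single exon, at 0.360, which ranked 83 of 11777. PRPF38B followed with 0.150 and SNRPG with 0.108. The lowest rates were those of PRPF40B at 0.00329 (percentile 22.8) and U2AF1 at 0.00424 (percentile 27.2). U2AF2 had a rate of 0.0223 (percentile 70.7). Neither SNRPN nor LSM7, PRPF6, PRPF18, U2AF1L4 and U2AF1L5 had a rate.

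Between genes, levels were compared as fly-scaled reads per kilobase of exonic length in the 15 min libraries. SF3B5 was highest at 799 ± 19.4, followed by SNRPG at 733 ± 41.7, PRPF38B at 727 ± 28.5, SNRPB at 558 ± 34.8 and SNRPC at 515 ± 37.0 (SD, n = 2 each). SNRPG and PRPF38B lay within 1 SD of each other, as did SNRPB and SNRPC within the sum of their SDs. The lowest of the tested genes were PRPF40B at 6.47, U2AF1L5 at 7.59, U2AF1L4 at 20.7 and U2AF1 at 22.6. PRPF40B overlaps exons of FAM186B and FMNL3 on the opposite strand, so its level and rate are uncertain. Reads of U2AF1 and U2AF1L5 may be split between the copies or uncounted, so their levels, the rate of U2AF1 and the U2AF group medians cannot be ranked against other genes with certainty. Group medians at this scale were 390 for Sm, 283 for the other snRNP genes, 272 for SF3, 226 for PRPF, 171 for LSm and 21.6 for U2AF after 15 min. After 5 min they were 160 for Sm, 111 for the other snRNP genes, 125 for SF3, 90.4 for PRPF, 71.1 for LSm and 4.08 for U2AF. The order depends on the length used, and 4 of the 10 highest genes per exonic length were among the 10 highest per length of the whole gene. As a description over 52 genes, Spearman's rho of rate with this level was 0.817 for the 15 min and 0.799 for the 5 min libraries. No source used here names the libraries behind the rates, so rate and level may rest on the same reads. Over the same genes rho of rate with the log2 fold change of share was -0.19.

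**Figure D4:**
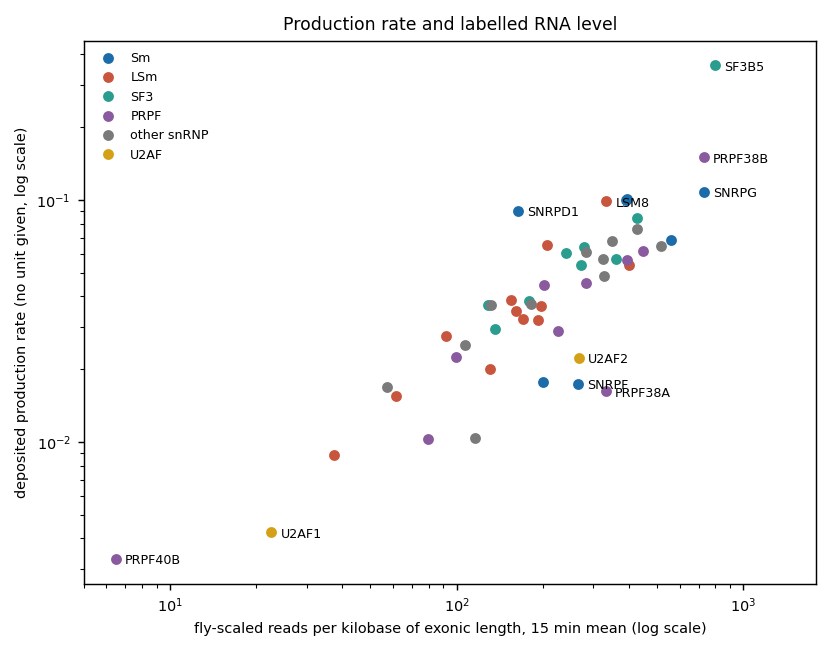
Deposited production rate (no unit given) against fly-scaled reads per kilobase of exonic length, mean of the 15 min libraries, for the rated genes but 1 by group, both axes on a log scale. SF3B5 stands at the upper right with a rate of 0.360 and a level of 799, and PRPF40B at the lower left with 0.00329 and 6.47.

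Beyond the genes matched by symbol, 78 genes of other spliceosome and snRNP assembly factors were listed, of which 77 were tested. SMN2, near-identical to SMN1, had 3 and 7 reads after 15 min and 10 and 6 reads after 5 min and was not tested. All 77 rose on the fly scale, where 98.4% of all tested genes did, with a median fold of 2.89. In share 29 fell, 6 rose and 42 did not pass, with a median log2 fold change of -0.12. Over all tested genes 21.3% were lower and 16.8% higher, and over protein-coding ones 30.5% and 13.7%. The lowest were STRAP, of the complex that loads Sm rings, at -1.01, and HTATSF1, a factor that binds U2 snRNP, at -0.75. The highest were ZRSR2, the U2AF1 relative of the minor spliceosome, at 0.58 (adjusted p = 0.0206), and GEMIN4, of the same Sm loading complex as STRAP, at 0.52. DHX15, the helicase that takes spliceosomes apart, had the most reads and was at -0.14 (adjusted p = 0.0436), and the helicase gene DDX39B, next in reads, was at 0.45.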

How the data were processed

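TT-seq libraries of untreated K562 cells were compared by label time, 15 min (n = 2) against 5 min (n = 2). The authors deposited whole-number read counts per human and per fly gene, not normalized, and 1 production rate per gene, a deposited score used as such because the file header names no unit or method. The submitters' processing notes name, with no roles or order, the builds hg38 and dm6 and the tools STAR 2.7, Subread 2.0.1 with featureCounts, edgeR and bcl2fastq 2.17.1.14. Depth was 4339981 to 5051370 human and 308978 to 897018 fly reads per library. The 2 libraries of a label time were kept apart, since chi-square over its degrees of freedom was 1.70 at 15 min and 1.55 at 5 min, above sampling noise. Without molecular identifiers, counts and floors cover counting error only.

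Counts were tested with edgeR 4.0.16 (filterByExpr with a minimum count of 10, robust quasi-likelihood fit, label time as the only term) over 17322 genes, with fly totals as library sizes for the amount of labelled RNA and with TMM factors for the share. Two-sided p-values were adjusted by Benjamini-Hochberg over all genes at 0.05, and an SE is the log2 fold change over the square root of F. The fit takes part of the spread from all genes together. The script was tested on simulated counts. Members were matched to GENCODE 29 and to the rates by gene ID, since LSM8 carries the symbol NAA38 and SF3B6 none in the rates. GENCODE 29 transcripts gave the shared 50-base words.

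Members given per library were, in each group, the gene with the most reads and the highest and lowest log2 fold change of share, with SNRPB, SNRPN, SNRPA, SNRPB2, U2AF1, U2AF2, LSM1, LSM8 and U2AF1L5 beside them. Of the other spliceosome genes, those named are the 2 lowest and the 2 highest called and the 2 with the most reads. 1 member is part of the counts and medians but is itself not reported here. Members and lists were chosen with earlier results of these data known. Alternatives were DESeq2 1.42.0, other scalings and filters, a replicate block, leaving out each library, and leaving out overlapping genes and near copies. Summing U2AF1 with U2AF1L5, and leaving out members by shared words alone, were chosen after seeing the data.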

Additional observations from a re-analysis of the deposited data

How the results depend on the processing

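All 57 fly-scaled rises were called by DESeq2, with fly median-of-ratios scaling, with both other filters and with the replicate block, and 55 to 57 when 1 library was left out. Leaving out members with exon overlap or a near copy left 29 members, of which 29 rose, 15 fell in share and 1 gained it. Leaving out members with over 10% shared words left 2 gains in share. DESeq2 gave 2 gains and total counts 9, and leaving out 1 library gave 3 to 5. Total counts in place of TMM put the median of all genes at 0.13 on the log2 scale, against 0.03 with TMM, turned 2915 higher and 3692 lower calls over all genes into 4233 and 2805, and gave group medians of -0.066 for LSm, -0.48 for SF3, -0.014 for PRPF, -0.38 for Sm, -0.10 for the other snRNP genes and 0.84 for U2AF. Leaving out 1 library gave medians of share of -0.62 to -0.43 for Sm, -0.68 to -0.52 for SF3 and 0.58 to 0.74 for U2AF, and a fly-scaled U2AF median of 2.13 to 2.53, the lowest without replicate 1 of 5 min. The share of SNRPA1 and SNRPG, near 0 throughout, was -0.0077 and -0.0057 in DESeq2, -0.0078 and -0.0053 with median-of-ratios factors, and -0.0056 and -0.0028 with no filter. PRPF38A and PRPF4B were 0.040 and 0.055 with total counts. Leaving out 1 library gave -0.010 to 0.082 for LSM8, -0.34 to 0.47 for PRPF18, -0.081 to 0.12 for PRPF4, -0.48 to 0.14 for PRPF40B, -0.032 to 0.0082 for SNRPA1 and -0.039 to 0.018 for SNRPG. The cause of these changes was not tested. The members' median percentile of rate was 85.7 among rated genes that passed the count filter and 86.1 among protein-coding ones.

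Libraries with the same replicate number did not clearly deviate together (correlation 0.0484, 2 pairs). With the replicate block in the fit, 7 members rose and 32 fell in share, no call was lost, and LSM12, LSM5, PRPF3, SNRNP25 and SNRNP70 were added. Depth limits the low members most: U2AF1L4, U2AF1L5, PRPF18 and PRPF40B had 12 to 48 reads per library.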

Other observations

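Set against their labelled RNA, the production rates of the members were uneven. Per 1000 fly-scaled reads per kilobase of exonic length after 15 min, the rate was 0.0488 for PRPF38A and 0.0653 for SNRPF at the low end, and 0.550 for SNRPD1, 0.509 for PRPF40B and 0.451 for SF3B5 at the high end. SNRPD1 and SNRPF both encode subunits of the Sm ring, and their rates were 0.0901 and 0.0174 while their fly-scaled reads after 15 min were 795 and 814 for SNRPD1 and 846 and 774 for SNRPF. The exonic length sums all annotated exons of a gene, also those no K562 transcript may use. PRPF40B had 26 to 38 reads per library. It overlaps exons of FAM186B and FMNL3 on the opposite strand by 4602 bases, against its own exonic length of 9444 bases. Its rate per level is therefore uncertain.

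The rates table also held 2 processed pseudogenes named after members. SNRPEP4 had a rate of 0.0310 (percentile 80.3) on 3 and 5 reads after 15 min and 15 and 13 reads after 5 min. PRPF38AP2 had a rate of 0.00759 (percentile 39.1) on 17 and 12 reads after 15 min and 12 and 9 reads after 5 min.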
